A study of Mus musculus with 4 samples.

Results

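The 10 genes described here encode the mouse SMAD proteins and a pair of nuclear corepressors that bind them: Smad1, Smad2, Smad3, Smad4, Smad5, Smad6, Smad7, Smad9, Skil and Tgif1. They were chosen by symbol from the 54838 gene entries of each file, and each symbol matched 1 entry. RNA was sequenced from Hepa1-6, a mouse hepatocellular carcinoma cell line, in 4 libraries. The 2 NC libraries are labelled wild type for Acvr2a, the gene of an activin type II receptor, and the 2 KO libraries are labelled Acvr2a knockout. No treatment is named for either group, and both are the same line. The design text speaks of knockout subclones, without saying whether the KO libraries come from separate subclones, how the gene was edited, or whether libraries of a group came from separate cultures. The tests below therefore measure the spread between these libraries, which may be partly technical.

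SMAD proteins carry signals of the TGF-beta family from receptors at the cell surface to the nucleus. Activated type I receptors phosphorylate the receptor-regulated SMADs, SMAD2 and SMAD3 after activin or TGF-beta and SMAD1, SMAD5 and SMAD9 after bone morphogenetic proteins (BMPs), and these pair with SMAD4 to act on genes. SMAD6 and SMAD7 block the pathway and are themselves induced by it, and SKIL (SnoN) and TGIF1 repress SMAD-dependent transcription. In liver, the SMAD1/5 branch is known for hepcidin control and the SMAD2/3 branch for growth arrest and fibrosis.

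Both inhibitory SMAD genes and both corepressor genes differed between the groups, and within each pair the members moved in opposite directions on the count scale. These 4 calls among 9 tested members (44.4%) stand beside 37.9% of all genes tested. Their number is therefore not a result about the members. In TPM the groups overlapped for Skil, which lost its call in 4 of 13 alternative fits. Smad7 was 1.47-fold and Skil 1.44-fold higher in KO, while Smad6 was at 0.580 and Tgif1 at 0.629 of the NC level. The signal-carrying SMADs with BMP or common roles, and Smad2, had log2 fold changes between -0.030 and -0.0047 on the count scale. Smad3 lay between these, at 0.24 and short of the threshold. In bulk RNA, fewer cells with a transcript and less of it per cell cannot be told apart.

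Promoter windows, 250 bases before to 50 bases after a RefSeq transcription start (GRCm38.p6), were looked up for all members. The table held 12 windows for 6 of the 10 members: Smad1, Smad3, Smad5, Smad6, Smad9 and Tgif1. Each window was searched on both strands for GTCTAGAC, the palindromic SMAD3/SMAD4 element, for GGCGCC, a palindrome bound by BMP-activated SMADs, and for TGACAG, the core of the TGIF1 recognition site, and none of these overlaps another in the windows shown. Over all 32851 windows, 0.213% held GTCTAGAC, 11.9% held GGCGCC and 19.2% held TGACAG. The Smad6 window (minus strand, chr9:64022010-64022309) and 1 of 5 Tgif1 windows (minus strand, chr17:70851161-70851460) are shown because these are the members that were lower in KO, with motif matches in capitals. Being lower in KO does not single out this window among the 5 of Tgif1. The Tgif1 window shown held a match, as did 1 other. The rest held none, among them the window nearest the start of the annotated gene (chr17:70853483-70853782). Smad7 and Skil, the members higher in KO, had no window, so motifs of lower and higher members could not be compared.
Smad6 promoter: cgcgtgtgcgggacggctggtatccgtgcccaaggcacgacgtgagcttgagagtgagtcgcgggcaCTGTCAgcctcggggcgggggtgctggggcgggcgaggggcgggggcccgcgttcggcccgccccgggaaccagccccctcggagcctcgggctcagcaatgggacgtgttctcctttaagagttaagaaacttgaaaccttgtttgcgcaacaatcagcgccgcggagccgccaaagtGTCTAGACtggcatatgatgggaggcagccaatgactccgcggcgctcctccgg
Tgif1 promoter: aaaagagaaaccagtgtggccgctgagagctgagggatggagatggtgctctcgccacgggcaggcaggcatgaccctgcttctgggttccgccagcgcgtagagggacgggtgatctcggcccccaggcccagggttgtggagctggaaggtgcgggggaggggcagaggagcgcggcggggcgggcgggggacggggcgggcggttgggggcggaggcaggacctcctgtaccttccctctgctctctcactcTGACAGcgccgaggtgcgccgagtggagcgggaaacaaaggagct
The Smad6 window was the only one of the 12 with GTCTAGAC, whose first base lies 4 bases before the start site, so that it spans the start. The same window held TGACAG on the other strand, where it reads CTGTCA, 183 bases before the start. The Tgif1 window held TGACAG beginning at base 6 of the transcript, and 1 other Tgif1 window held it at base 39. GGCGCC was found in the Smad9 window and in 2 overlapping windows of Smad5, and the Smad1 and Smad3 windows held none of these motifs. A match describes the letters only, since no binding was measured here.

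The libraries held between 11597923 and 13910582 counts, and the members took 8154 to 10923 of these. NC 1 and NC 2, and likewise KO 1 and KO 2, differed by more than counting noise (chi-square per degree of freedom 7.15 and 10.02), so neither pair is a repeat deposit of one library, which does not show that they came from separate cultures. Acvr2a was counted 81 and 108 times in NC against 75 and 97 times in KO. Its log2 fold change of -0.21 (SE 0.20) did not pass the test (edgeR quasi-likelihood, adjusted p = 0.433), so its total does not separate the groups, and their names follow the labels. Of 7 hepatocyte or hepatoma markers, Alb, Afp, Apoe, Trf and Hnf4a had at least 47.5 TPM (a level scaled by transcript length and library total) in each library. The remaining markers were low: Apoa1 had 17 to 39 counts (log2 fold change 0.33, adjusted p = 0.549) and Ttr at most 1. The markers that passed went both ways: Alb (log2 fold change 0.41, adjusted p = 0.00224) and Trf (0.54, adjusted p = 4.31e-05) were higher in KO, and Afp (-1.21), Apoe (-0.93) and Hnf4a (-0.995) were lower (adjusted p at most 4.25e-08). The summed level of the 7 was 4474 and 4284 TPM in NC against 3303 and 3001 TPM in KO. Apoe alone fell by more than the mean of this sum did, from 3274 to 1789 TPM, and the rises of Alb and Trf offset part of its fall. Most markers of other cell types were near 0. The 6 leukocyte markers summed to 24.1 and 27.9 TPM in NC against 55.7 and 67.9 TPM in KO. Nearly all of this was Cd68, a lysosomal protein gene that was 2.30-fold higher in KO (adjusted p = 1.34e-08), while Cd3e was at 0 counts and Ptprc at 0 to 2. The 5 stellate or fibroblast markers summed to 1033 to 1238 TPM, nearly all of it Dcn (0.16, adjusted p = 0.193), with Lum at 0, Acta2 at 0 to 1 and Pdgfrb at 0 to 2 counts. Des, which encodes the muscle filament protein desmin, was higher in KO, from 43 and 55 counts to 126 in each KO library (1.28, adjusted p = 2.76e-05). The 5 endothelial markers summed to at most 0.480 TPM. The part of these marker differences in the members' values was not tested.

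Of the 10 members 9 were tested, because Smad9 had 0 counts in each library and fell under the filter on low counts. Of the 9, 4 passed an adjusted p of 0.05, 2 higher and 2 lower in KO. Over all 12510 genes tested 37.9% passed, 19.7% higher and 18.2% lower, so the members' share of 44.4% is near the background and is not a result about them. Their median log2 fold change was -0.023, against -0.0037 over all genes tested. By size of change, Smad6 exceeded 87.7% of tested genes, Tgif1 83.9%, Smad7 78.3% and Skil 76.2%, whereas Smad4, Smad1, Smad2 and Smad5 each lay among the smallest 6.55%. In CPM, counts scaled to a common library size, the groups did not overlap for 5 of the 9 members, against 69.4% of all genes tested, and in TPM for 6 of the 9, against 62.7%.

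Smad6 (ENSMUSG00000036867.7, chromosome 9, 63953076 to 64022059, minus strand) encodes the inhibitory SMAD best known for blocking BMP signals. It was counted 258 and 311 times in NC 1 and NC 2 and 175 and 174 times in KO 1 and KO 2. These correspond to 22.7 and 22.5 CPM in NC against 13.3 and 12.9 CPM in KO. Both KO libraries lay well below both NC libraries, and the libraries of a group were nearly equal. Mean levels were 22.6 ± 0.17 CPM in NC against 13.1 ± 0.28 CPM in KO (SD, n = 2), and the log2 fold change was -0.79 (SE 0.14, 95% interval -1.07 to -0.50, adjusted p = 6.10e-05). In TPM the same order held, with 8.84 and 9.19 in NC against 5.64 and 5.67 in KO.

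Smad7 (ENSMUSG00000025880.11, chromosome 18, 75367529 to 75395935, plus strand) encodes the inhibitory SMAD that acts on both branches and recruits ubiquitin ligases to receptors. It was counted 742 and 1001 times in NC against 1342 and 1365 times in KO. The CPM were 65.3 and 72.3 in NC against 101.9 and 101.1 in KO, so that the groups lay apart by more than the distance between NC 1 and NC 2. Mean levels were 68.8 ± 4.96 CPM in NC against 101.5 ± 0.57 CPM in KO (SD, n = 2), and the log2 fold change was 0.56 (SE 0.09, 95% interval 0.37 to 0.75, adjusted p = 4.04e-05). The TPM were 27.0 and 31.8 in NC against 44.8 and 41.8 in KO.

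The balance between the inhibitory SMAD genes restates their opposite changes in the same libraries and is not a separate result. The ratio of Smad7 TPM to Smad6 TPM was 3.06 in NC 1 and 3.46 in NC 2, and 7.95 in KO 1 and 7.37 in KO 2. The ratio was higher in both KO libraries than in either NC library, with means of 3.26 ± 0.28 and 7.66 ± 0.41 (SD, n = 2). An exact two-sided permutation test gave p = 0.33, the smallest that 2 against 2 libraries allow. On counts, with no length scaling, the ratio was 3.05 ± 0.24 in NC against 7.76 ± 0.12 in KO.

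Tgif1 (ENSMUSG00000047407.17, chromosome 17, 70844205 to 70853546, minus strand) encodes a homeodomain corepressor that binds SMAD2 and SMAD3 and competes with coactivators. It had the highest TPM of the members in each library. It was counted 2320 and 2772 times in NC against 1646 and 1744 times in KO. The CPM were 204.1 and 200.2 in NC against 124.9 and 129.1 in KO, with no overlap. Mean levels were 202.1 ± 2.75 CPM in NC against 127.0 ± 2.95 CPM in KO (SD, n = 2), and the log2 fold change was -0.67 (SE 0.09, 95% interval -0.86 to -0.48, adjusted p = 1.89e-06). In TPM it went from 204.4 and 213.3 to 145.2 and 132.7. Its processed pseudogene Tgif1-ps had 0 counts in each library.

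Skil (ENSMUSG00000027660.16, chromosome 3, 31095058 to 31122577, plus strand) encodes SnoN, a SKI-family corepressor whose protein is degraded and whose gene is induced after TGF-beta or activin. It was counted 375 and 464 times in NC against 563 and 718 times in KO. The CPM were 33.0 and 33.5 in NC against 42.7 and 53.2 in KO. Both KO libraries were higher, and they differed more from each other than the NC libraries did. Mean levels were 33.2 ± 0.37 CPM in NC against 47.9 ± 7.37 CPM in KO (SD, n = 2), and the log2 fold change was 0.53 (SE 0.11, 95% interval 0.30 to 0.76, adjusted p = 0.000549). In TPM the groups overlapped, with 7.01 and 9.97 in NC against 9.23 and 14.2 in KO. On the log2(TPM + 1) scale the difference was 0.41 and did not pass (limma, adjusted p = 0.248).

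The proportion of the corepressor genes likewise restates their opposite changes and is not a separate result. Per count, Tgif1 exceeded Skil 6.19 and 5.97 times in NC 1 and NC 2, and 2.92 and 2.43 times in KO 1 and KO 2. The values of the groups did not overlap (exact two-sided permutation p = 0.33, the smallest possible). Per TPM the ratio was 29.2 and 21.4 in NC against 15.7 and 9.37 in KO.

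**Figure D1:**
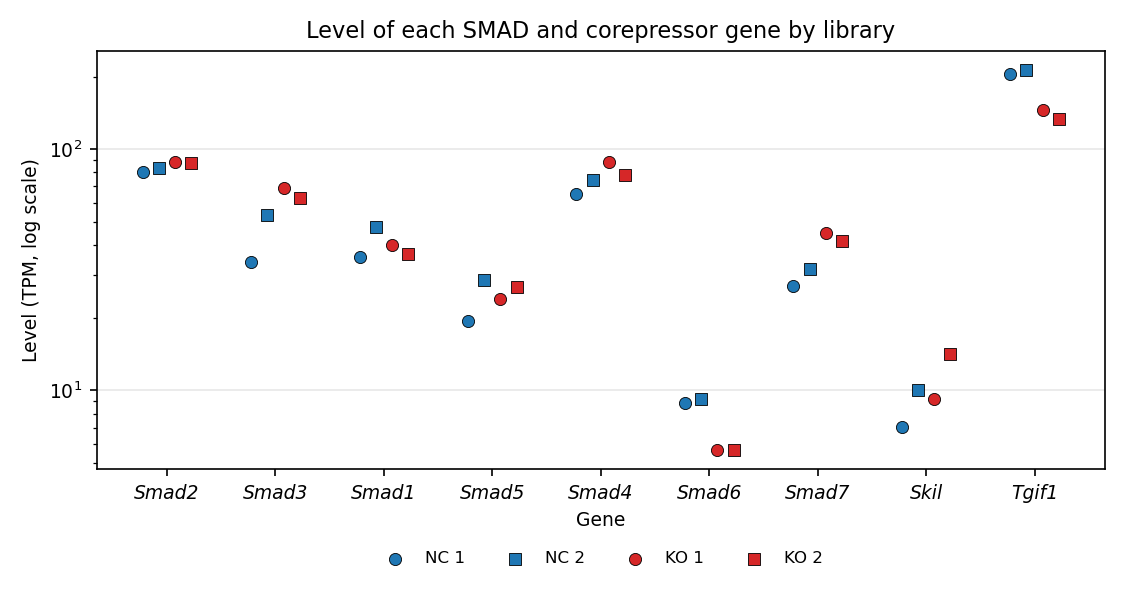
Level of 9 members in each library, in TPM on a log axis, with circles for replicate 1 and squares for replicate 2, NC in blue and KO in red; Smad9, at 0, is left out. Smad6 and Tgif1 have both KO points below both NC points, Smad2, Smad3, Smad4 and Smad7 have both above, and the groups overlap for Smad1, Smad5 and Skil.

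Smad3 and Smad2 encode the SMADs that activin receptors activate. Smad3 (ENSMUSG00000032402.12, chromosome 9, 63646767 to 63757994, minus strand) was counted 1031 and 1499 times in NC against 1501 and 1637 times in KO. The CPM were 90.7 and 108.2 in NC against 113.9 and 121.2 in KO. Both KO values lay above both NC values, but NC 1 and NC 2 were farther apart than NC 2 and KO 1. At a log2 fold change of 0.24 (SE 0.10, 95% interval from 0.038 to 0.44), Smad3 did not pass 0.05 over all genes tested (adjusted p = 0.0553). The change was 0.38 without NC 2, where it passed (adjusted p = 0.0169) along with 29.9% of all genes tested, and 0.12 without NC 1 (adjusted p = 0.510), where 28.7% passed.

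Smad3 differed more in TPM than in counts. The TPM were 34 and 53.4 in NC against 68.8 and 62.5 in KO, and the difference on the log2(TPM + 1) scale was 0.61 (limma, adjusted p = 0.0640). On that scale 17.3% of all genes tested passed. The deposited mean transcript length of Smad3, weighted by the estimated abundance of its 5 transcripts, was 3076 and 2507 bases in NC against 2162 and 2393 bases in KO. GENCODE M21 annotates these transcripts at 406 to 5090 bases, with 1 long coding form of 5090 bases and 4 forms of 744 bases or less. With each library's effective length as an offset in the count fit, the log2 fold change was 0.52 (edgeR quasi-likelihood, adjusted p = 0.0468), in a fit where 23.1% of all genes tested passed.

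Smad2 (ENSMUSG00000024563.15, chromosome 18, 76241580 to 76310963, plus strand) had 84.9 and 92.5 CPM in NC against 83.8 and 90.2 CPM in KO, from 965 to 1281 counts. The groups overlapped, and the log2 fold change was -0.029 (SE 0.09, 95% interval -0.22 to 0.16, adjusted p = 0.842). In TPM the libraries were at 80.3 and 83.1 in NC against 88.6 and 87.5 in KO. The ratio of Smad3 to Smad2 in counts was 1.07 and 1.17 in NC against 1.36 and 1.34 in KO, higher in both KO libraries (exact two-sided permutation p = 0.33, the smallest possible).

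Smad4 (ENSMUSG00000024515.13, chromosome 18, 73639009 to 73703780, minus strand) encodes the common partner of both branches. Its CPM were 115.6 and 127.4 in NC against 119.7 and 119.6 in KO, both KO values lying between the NC values. The log2 fold change was -0.023 (SE 0.09, 95% interval -0.21 to 0.17, adjusted p = 0.872). In TPM the NC libraries had 64.9 and 74.3 and the KO libraries 88.4 and 78.1. Its mean transcript length was 2134 and 2157 bases in NC against 1812 and 1940 bases in KO, and on the log2(TPM + 1) scale the difference was 0.26 (limma, adjusted p = 0.175).

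Smad1 and Smad5 encode the SMADs of the BMP branch. Smad1 (ENSMUSG00000031681.16, chromosome 8, 79338395 to 79399518, minus strand) had 60.0 and 78.4 CPM in NC against 70.2 and 65.7 CPM in KO. Smad5 (ENSMUSG00000021540.16, chromosome 13, 56703010 to 56742377, plus strand) had 41.1 and 53.9 CPM in NC against 44.8 and 50.2 CPM in KO. For both genes the KO values lay between NC 1, the lower, and NC 2. The log2 fold changes were -0.030 (95% interval -0.25 to 0.19, adjusted p = 0.857) for Smad1 and -0.0047 (95% interval -0.24 to 0.23, adjusted p = 0.981) for Smad5. Exons of Smad5 overlap the entry Gm27301 on the same strand.

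Smad9 (ENSMUSG00000027796.2, chromosome 3, 54755582 to 54801257, plus strand), the remaining gene of the BMP branch, had 0 counts in each library. A count of 0 allows up to 3 counts, or 0.217 to 0.264 CPM at these depths, for counting error only. The level of the BMP-branch SMADs in these cells was thus read from Smad1 and Smad5.

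**Figure D2:**
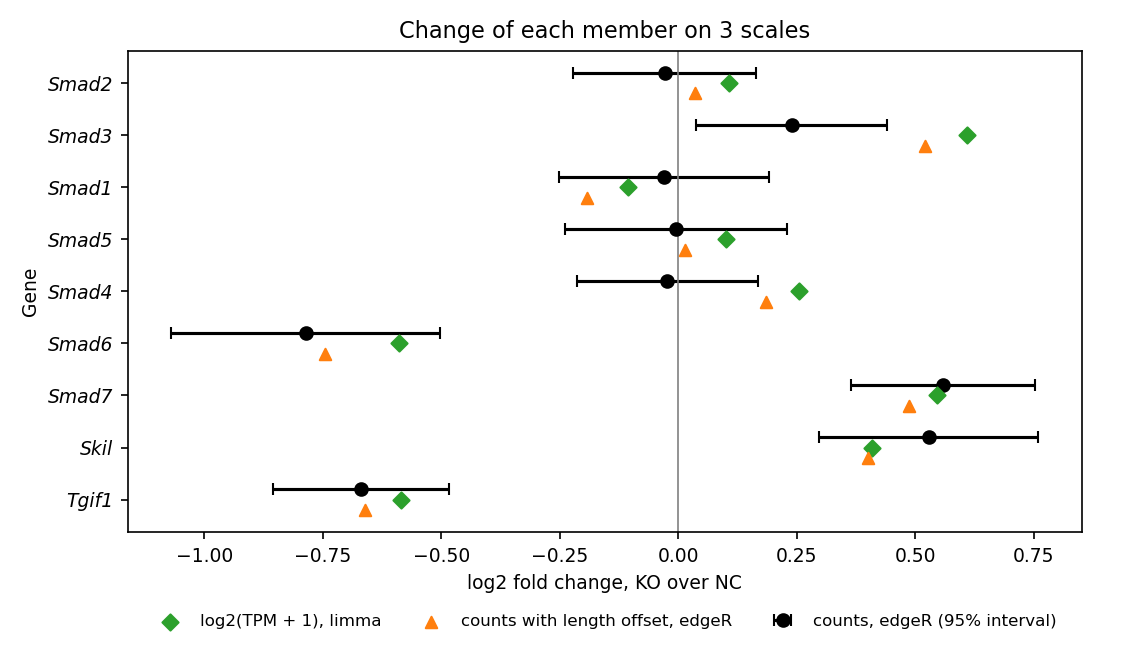
Log2 fold change of KO over NC for 9 members: black points with 95% intervals from counts (edgeR), green diamonds on the log2(TPM + 1) scale (limma) and orange triangles from counts with an effective length offset (edgeR). Smad6, Smad7, Skil and Tgif1 keep their side of 0 on each scale, Smad3 moves from 0.24 to 0.61, and Smad2, Smad4 and Smad5 change sign.

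Read per length, in TPM, the order in NC was Tgif1 (208.9 ± 6.30), Smad2 (81.7 ± 1.95), Smad4 (69.6 ± 6.68), Smad3 (43.7 ± 13.7), Smad1 (41.7 ± 8.57), Smad7 (29.4 ± 3.33), Smad5 (23.9 ± 6.51), Smad6 (9.02 ± 0.25) and Skil (8.49 ± 2.09; SD, n = 2). The NC ranges of Smad3 and Smad1, of Smad7 and Smad5, and of Smad6 and Skil overlapped, so these neighbours were not separated. In KO, Smad7 (43.3 ± 2.16) stood above Smad1 (38.3 ± 2.40), and Skil (11.7 ± 3.49) stood above Smad6 (5.66 ± 0.021; SD, n = 2). The KO ranges of Smad2 and Smad4 overlapped, and those of the other neighbours did not.

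The summed TPM of the 8 SMAD genes was divided among the classes in similar proportions in each library. SMAD2 and SMAD3 genes took 42.3% and 41.6% in NC against 43.7% and 44.3% in KO. The BMP-branch genes took 20.3% and 23.2% in NC against 17.7% and 18.7% in KO. Smad4 took 22.7% to 24.5%, and the inhibitory genes took 13.3% and 12.5% in NC against a mean of 14.01% in KO. Within that last class Smad7 was higher and Smad6 lower in KO. The differences in mean share were 2.01 percentage points for SMAD2/3, -3.58 for the BMP branch, 0.452 for Smad4 and 1.12 for the inhibitory genes. Shares of TPM move with the estimated transcript lengths, which were shorter in KO for Smad3 and Smad4 and longer for Smad1 and Smad7. In counts, Smad1 and Smad5 had log2 fold changes of -0.030 and -0.0047. The part of transcript length in the shares was not tested. Exact two-sided permutation tests of these 4 shares gave p = 0.667 for Smad4 and p = 0.33 for the others, where 0.33 is the smallest possible and no adjusted value can be lower.

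**Figure D3:**
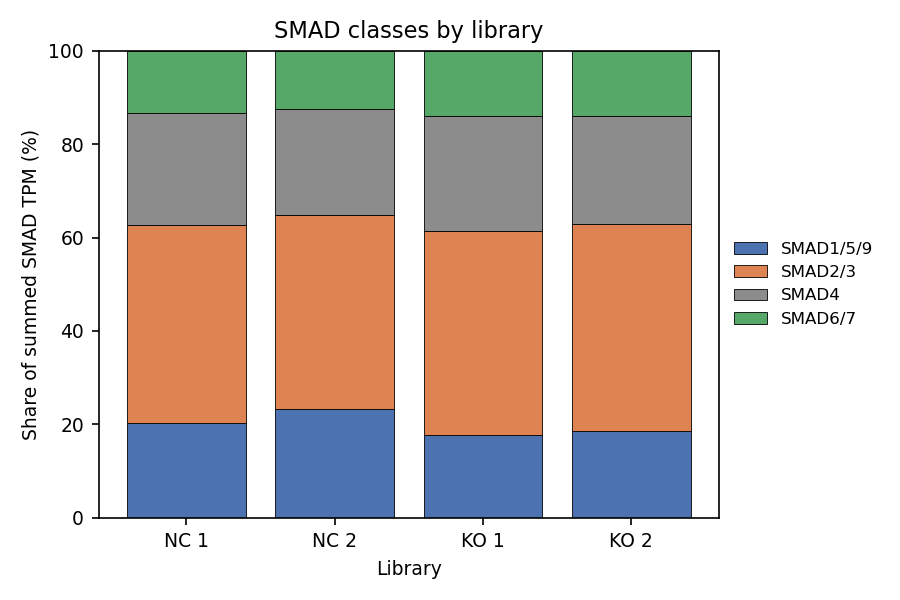
Share of the summed TPM of the 8 SMAD genes taken by each class, as stacked bars from 0 to 100% for the 4 libraries. The BMP-branch share (blue) is 20.3% and 23.2% in NC against 17.7% and 18.7% in KO. Shares of TPM move with the estimated transcript lengths, and in counts Smad1 and Smad5 had log2 fold changes of -0.030 and -0.0047.

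The deposited mean transcript length, which moves when the estimated mix of transcripts moves, lay apart between the groups for 4 of the 9 tested members, against 31.4% of all genes tested. It was shorter in KO for Smad3 and Smad4 and longer in KO for Smad1 (2032 and 2077 against 2278 and 2234 bases) and Smad7 (2806 and 2785 against 2875 and 2927 bases). Skil varied by replicate rather than by group, with 5246 and 3996 bases in NC against 5605 and 4408 bases in KO. The annotated Skil transcripts run from 716 to 6717 bases. The longest estimate exceeded the shortest 1.42 times for Smad3 and 1.40 times for Skil, and for the other tested members at most 1.19 times. Over all genes tested, 22.0% varied by more than 1.2 times. These estimates split reads among overlapping transcripts, have no error in the files, and are given as a description.

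**Figure D4:**
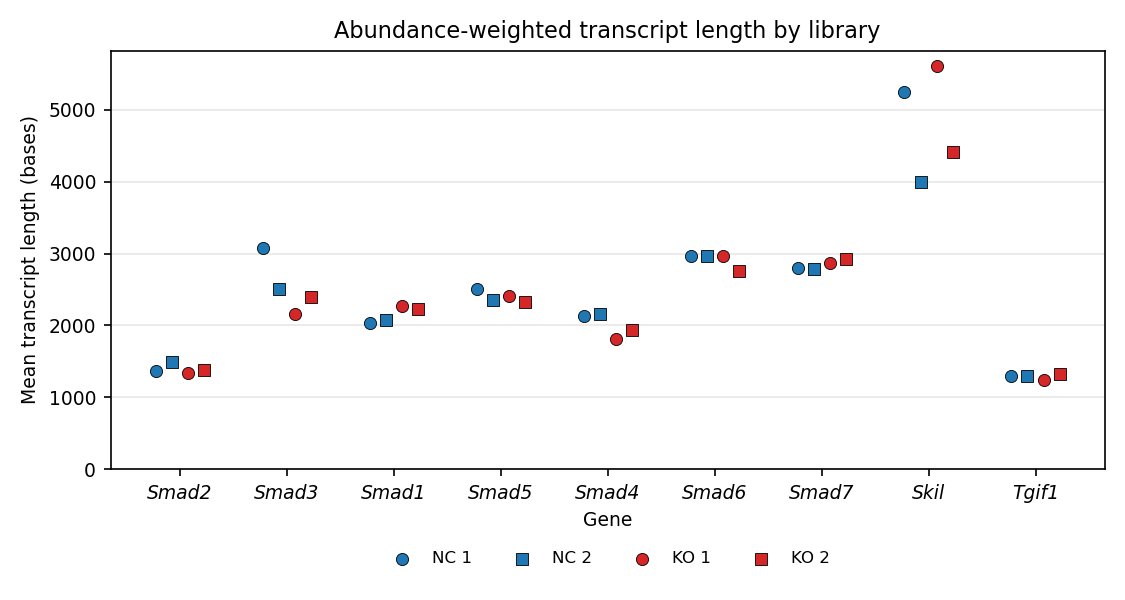
Mean transcript length of 9 members in bases, weighted by estimated transcript abundance, for each library (circles replicate 1, squares replicate 2, NC blue, KO red). Smad3 ranges from 2162 to 3076 bases and is shorter in KO, and Skil is longer in replicate 1 of both groups.

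Other genes of the pathway were read from the same fit. Of 24 genes whose proteins regulate or partner SMADs, 22 were tested, 3 were higher and 2 lower, and the median log2 fold change was 0.042. These 22.7% stand beside 37.9% of all genes tested, so single calls in the list are given as values and not as a result about it. The ubiquitin ligase gene Smurf1, whose protein SMAD7 brings to receptors, had 0.33 (SE 0.10, adjusted p = 0.00750), and Trim33, whose protein binds SMAD4 and receptor-regulated SMADs, had 0.33 (SE 0.09, adjusted p = 0.00716). Bambi, which encodes a decoy receptor, rose by 1.45 (SE 0.48, adjusted p = 0.0137) from 10 and 7 counts in NC to 23 and 27 in KO. Its NC counts alone would not have passed the filter on low counts. Bambi was thus tested through its KO libraries, and its call is not independent of the filter. The phosphatase gene Ctdsp1 fell by 0.48 (log2 fold change -0.48, SE 0.09, adjusted p = 0.000127), and Wwp1, a ubiquitin ligase gene named after its value was seen, had -0.27 (adjusted p = 0.0287). The relatives of the member corepressors did not pass, Ski at 0.15 (adjusted p = 0.215) and Tgif2 at -0.19 (adjusted p = 0.146). Foxh1, a DNA-binding partner of SMAD2 and SMAD3, had 5 to 10 counts, and Pmepa1 had 0.

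Of 12 type I and II receptor genes 8 were tested. Acvr1b, the activin type I receptor, was higher (0.42, adjusted p = 0.0160), Acvr1, which can signal to SMAD1/5, was lower (-0.40, adjusted p = 0.0188), and 6 did not pass. The share of 25% stands beside 37.9% of all genes tested, and the median was -0.079.

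Targets outside the members were counted for each branch. Among 8 SMAD1/5 targets 4 were tested, and Id1 was higher, from 169.5 ± 20.1 to 232.0 ± 7.54 CPM (SD, n = 2; log2 fold change 0.45, SE 0.10, adjusted p = 0.000476). Id2, Id3 and Atoh8 did not pass, so that 25% were called against 37.9% of all genes tested, and the median of the 4 was 0.12. Among 20 SMAD2/3 targets 15 were tested, 8 were higher, 1 was lower and 6 did not pass, with a median of 0.26. This 60.0% stands beside 37.9% over all genes tested, with genes chosen after earlier results of these data were known. No SMAD activity was measured here, and whether these changes came through SMAD2/3 was not tested. Fstl3, an activin-binding protein gene, rose by 2.18 (SE 0.15), Cyr61 by 1.36 (SE 0.09) and Col1a1 by 2.73 (SE 0.51) from 6 and 5 counts to 38 and 41. Col1a1, 1 of the 8 higher genes, had too few counts in NC to pass the filter on low counts there. Only its KO libraries brought it into the test, so its call is not independent of the filter. The lower gene was Fst, which encodes follistatin (-0.91, SE 0.16, adjusted p = 8.00e-05; named after its value was seen). Whether reads were counted by strand is not given, so the totals of Fstl3 (exons overlapping Prss57 on the other strand), Fst (Gm47040), Wwp1 (Gm12353), Tgif2 (5430405H02Rik and Gm37790), Des (Gm15179) and Acvr2a (Orc4) are uncertain. Exons of Trf overlap Gm20425 on the same strand, so its total is uncertain as well. No tested member but Smad5 shares exonic bases with another annotated gene.

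**Figure D5:**
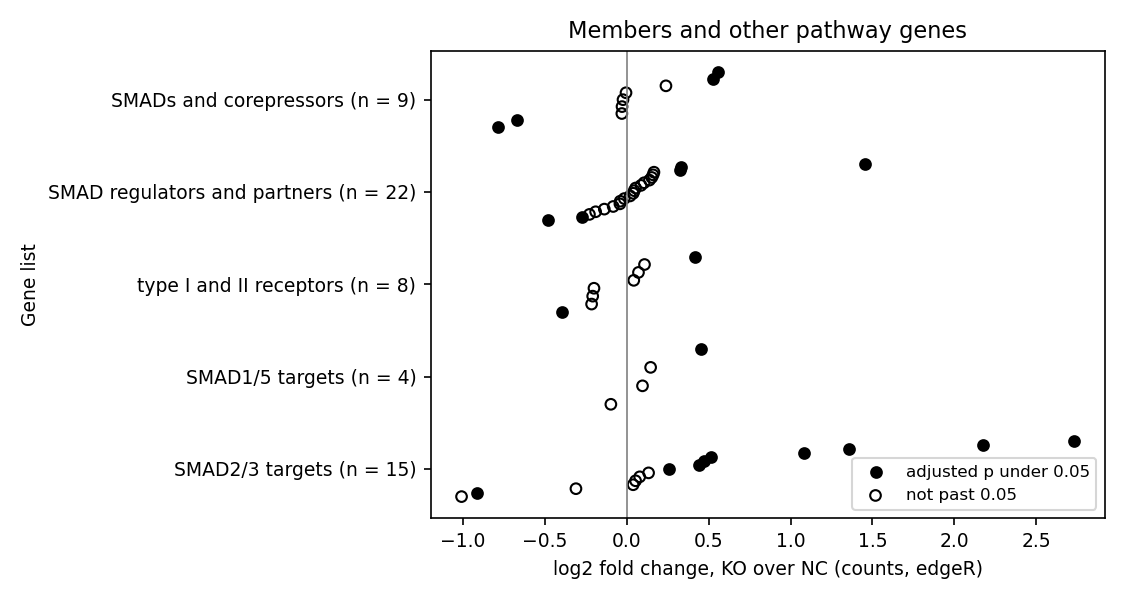
Log2 fold change of KO over NC (counts, edgeR) for the tested genes of 5 lists, with filled points past an adjusted p of 0.05 and open points not past it. The 9 members spread from -0.79 to 0.56, and 8 of the 9 filled points among SMAD2/3 targets lie above 0. Of the 15 tested SMAD2/3 targets 60.0% passed, against 37.9% of all genes tested, and the list was chosen with earlier results of these data known. Whether their changes came through SMAD2/3 was not tested.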

How the data were processed

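RNA was sequenced from 2 NC and 2 KO libraries of Hepa1-6 cells, made from total RNA with a directional kit, per the labels' protocols. The authors' expected counts are estimated reads per gene, not normalised, and the deposited TPM are scaled by effective length, per the file headers. The deposited FPKM were not used. STAR, RSEM and DESeq2, and the builds GRCm38 and mm10, are named in the submitters' processing notes, and the annotation and strand setting are not given in the sources used here. Estimated counts can be exchanged between similar transcripts.

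Expected counts were rounded (totals moved by at most 0.000188%), filtered with filterByExpr, scaled with TMM and tested with edgeR 4.0.16 quasi-likelihood (R 4.3.3), group only, two-sided, with Benjamini-Hochberg adjustment over 12510 genes and a threshold of 0.05. All adjusted p-values are from this fit unless another fit is named beside them. The other fits are edgeR with a changed setting or a library left out, and limma 3.58.1 on log2(TPM + pseudocount). DESeq2 1.42.0 gave a further alternative, and no p-value from it is printed. SEs come from the fitted weights and moderated dispersion. The spread is shared across genes, with 25.8 prior degrees of freedom. Fits were tested on simulated counts. Positions are from GENCODE M21 (GRCm38), matched by ID without version. All members are named. Acvr2a and up to 4 genes per list with the lowest p past 0.05 are named as well, apart from 1 not reported here. The members and lists were chosen with earlier results of these data known. Intervals cover counting error and the spread of these libraries, floors cover counting error only, and PCR copies were not separated.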

Additional observations from a re-analysis of the deposited data

How the results depend on the processing

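Smad6, Smad7 and Tgif1 kept direction and call in 12 of 13 alternatives and Skil in 9. The length offset was added after seeing the data. It called 2892 genes, against 4741. Filtered log2(TPM + 1) and log2(TPM + 0.1) called 2158 and 2099 (68.0% higher, against 51.9%), and unfiltered TPM 0 of 20640 (4506 at an unadjusted p under 0.05) and 0 members. In unfiltered TPM (limma) the calls were lost for Smad6 (-0.59, adjusted p = 0.116), Smad7 (0.55, 0.112) and Tgif1 (-0.59, 0.0833). Skil lost its call at 0.41 (unfiltered and pseudocount 1), 0.45 (pseudocount 0.1) and 0.40 (length offset). Smad3 passed with robust fitting (0.24, adjusted p = 0.0410) and the length offset (0.52). The cause was not tested.

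Signs near 0 turned. In the order TPM + 1 (with and without the filter), TPM + 0.1 and length offset, the log2 fold changes were 0.11, 0.11 and 0.036 for Smad2, 0.26, 0.26 and 0.18 for Smad4, and 0.10, 0.11 and 0.015 for Smad5. None of these passed.

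Without 1 library in turn, the ranges were 3586 to 4472 genes called, -0.089 to 0.042 for Smad2, 0.12 to 0.38 for Smad3, -0.21 to 0.19 for Smad1, -0.18 to 0.22 for Smad5, -0.091 to 0.056 for Smad4, -0.81 to -0.76 for Smad6, 0.49 to 0.64 for Smad7, 0.36 to 0.68 for Skil and -0.69 to -0.64 for Tgif1. The calls of Smad6, Smad7, Skil and Tgif1 held in each of these fits, and Smad3 passed without NC 2 (0.38) and without KO 1 (0.29).

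Same-numbered libraries did not deviate together (correlation -0.0116), so the numbers are not taken as pairs. With a replicate block 5006 genes and 5 members passed, Smad3 among them (0.24, adjusted p = 0.0390), and Smad5 was at 0.0063. With 2 libraries per group no permutation test can go below 0.33. Differences inside the intervals given for Smad1, Smad2, Smad4 and Smad5 were not detectable. These intervals are unadjusted, so somewhat larger differences could have been missed as well. The interval of Smad3 (0.038 to 0.44) left out 0, yet Smad3 did not pass in the main fit (edgeR quasi-likelihood, adjusted p = 0.0553).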

Other observations

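Several members are neighbours on the genome. On chromosome 9 Smad3 and Smad6 lie on the same strand 195081 bases apart with no other tested gene between them, and their log2 fold changes were 0.24, which did not pass, and -0.79. On chromosome 18 Smad7 and Smad2 lie 845644 bases apart. The 2 tested genes between them were both higher in KO (edgeR quasi-likelihood), Ctif, a translation initiation factor gene, by 0.83 (SE 0.12, adjusted p = 4.25e-06) and Zbtb7c, a zinc finger gene, by 0.90 (SE 0.18, adjusted p = 0.000273). Smad7 itself was at 0.56, and Smad2 was at -0.029 (adjusted p = 0.842), a value that is positive on the TPM and length-offset scales. Of the 16 genes tested from Smad4 to Smad2, these included, 7 passed, against 37.9% of all genes tested. Exons of Ctif overlap Gm10532 on the other strand. Ctif and Zbtb7c were picked with their values in view.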
